A study of Mus musculus with 9 samples.

Results

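The transcriptome of mouse pancreatic stellate cells in medium conditioned by tumour organoids (CM) was compared with that in a control medium (MG-CM), over every gene the files measured. All 3 CM and all 3 MG-CM libraries were used, 6 of the 9 libraries of the series, and 13613 of 17156 gene symbols had enough counts to be tested. The other 3 libraries, from CM with 500 nM AZD1480, an inhibitor of JAK kinases, entered only the shared estimates of spread and of differences between replicate numbers. Both compared groups were wild-type stellate cell lines from the pancreas of C57BL/6J mice, grown for 4 days. MG-CM is labelled as Matrigel-conditioned or control medium and was DMEM with 5% FBS, while the FBS content of CM is not given in the sources used here. Replicate 1 of each group was the line PSC4, replicate 2 PSC5-I and replicate 3 PSC5-II, and each replicate number had its own source of CM. Line and source therefore cannot be told apart, and PSC4 is 1 library in each medium. Replicates 2 and 3 share the line label PSC5, so the 3 pairs are not from 3 separate lines.

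Pancreatic stellate cells are fibroblast-like cells that store vitamin A at rest and, in injury and around tumours, take on contractile, matrix-producing or cytokine-secreting states. Tumour cells reach them through secreted factors, whose receptors feed transcription factors such as AP-1, the STATs and the SMADs. The contractile state depends on serum response factor (SRF) and its co-factors of the MRTF family, which enter the nucleus when actin polymerises, and Wnt and BMP signals set other fibroblast states.

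The 6 libraries held 26672965 to 32466018 counts, and mitochondrial transcripts made up 1.53% to 1.90% of counts over all 9. Principal component 1 of log2 CPM (48.8% of variance) placed CM replicates 1, 2 and 3 at -79.5, -37.6 and -35.8, against -0.722, 26.4 and 14.1 for MG-CM, so CM replicate 1, of PSC4, stood furthest out. Levels are in CPM, counts scaled to a common library total, and are given in the order of replicates 1, 2 and 3. Of 13 tested stellate and fibroblast markers, 0 rose and 2 fell. They were Vim, an intermediate filament, at 1175, 1715 and 1782 CPM in MG-CM and 578, 765 and 951 CPM in CM (-1.03 ± 0.10 on the log2 scale, adjusted p = 0.00145) and Col1a2, a collagen chain, at 412, 518 and 560.2 CPM in MG-CM and 273, 331 and 444 CPM in CM (-0.52 ± 0.11, adjusted p = 0.0150, and 0.134 without the block), which was called in 2 of the 6 fits that left out 1 library. The summed level of the list was 6468 to 7544 CPM in MG-CM and 4329 to 7192 CPM in CM. The quiescence marker Gfap stayed at or under 0.114 CPM in each of these libraries. Among markers of other cells, Epcam and Cdh1 of epithelium did not exceed 0.155 and 0.209 CPM and Ptprc of leukocytes did not exceed 0.031 CPM. Others were higher, up to 16.5 CPM for Muc1, 26.4 for Eng, 28.0 for Bnc1, 67.1 for Msln and 145 for Nes. Cd53, Spint1, Cela1 and Wt1 were called higher in CM and Krt19, Tek, Emcn and Mbp lower. Of the epithelial markers, Spint1 stood at 4.32, 3.55 and 4.13 CPM in MG-CM and 11.5, 6.54 and 6.04 CPM in CM (adjusted p = 0.0121) and Krt19 at 3.98, 10.4 and 10.2 CPM in MG-CM and 0.765, 1.95 and 6.53 CPM in CM (adjusted p = 0.0156, and 0.299 without the block). Summed leukocyte markers were nevertheless 6.29 to 8.07 CPM in MG-CM and 12.7 to 30.4 CPM in CM, mainly through Cd53, a tetraspanin, at 1.47, 0.846 and 1.52 CPM in MG-CM and 25.4, 7.03 and 6.56 CPM in CM, while summed endothelial markers were 40.01 to 45.8 CPM in MG-CM and 28.5 to 36.2 CPM in CM. Summed epithelial markers were 22.0 to 28.1 CPM in MG-CM and 24.0 to 32.9 CPM in CM, acinar and endocrine markers 8.23 to 9.13 and 10.4 to 14.6 CPM, mesothelial markers 9.74 to 33.2 and 9.77 to 97.1 CPM, and Schwann and neural markers 77.4 to 156 and 76.4 to 140 CPM. Their part in the results was not tested. In bulk RNA, fewer cells of a type and less RNA per cell cannot be told apart.

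CM changed 24.4% of the tested genes. At an adjusted p under 0.05 in edgeR's quasi-likelihood test with the replicate number as a block, 1577 genes rose, which is 11.6% of those tested, and 1748 fell, which is 12.8%. Most changes were small. The median called gene rose by 0.59 or fell by 0.66 on the log2 scale, 475 genes rose and 554 fell at least 2-fold, 156 rose and 198 fell at least 4-fold, and 10 rose and 21 fell at least 16-fold. The CM and MG-CM libraries did not overlap in 2728 of the 3325 called genes, and for 3321 the 3 pairs shared a direction. Both counts follow in part from the call, which was made on the same libraries. Of all tested genes 16.0% had all CM libraries above and 16.8% had all below. For 49.8% of tested genes the 95% interval of the log2 change lay within 0.5 of 0, and for 1657 uncalled genes it still reached beyond 1, so these data leave room for a 2-fold change in them. The number of calls rests on the design: without the block 660 genes rose (4.85%) and 734 fell (5.39%), and without MG-CM replicate 2 the fit with the block called 575 and 719. With the block but only the 6 compared libraries, without those of the JAK inhibitor, 738 rose and 937 fell. Of the called genes, 1105 were called without each CM or MG-CM library in turn.

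**Figure D1:**
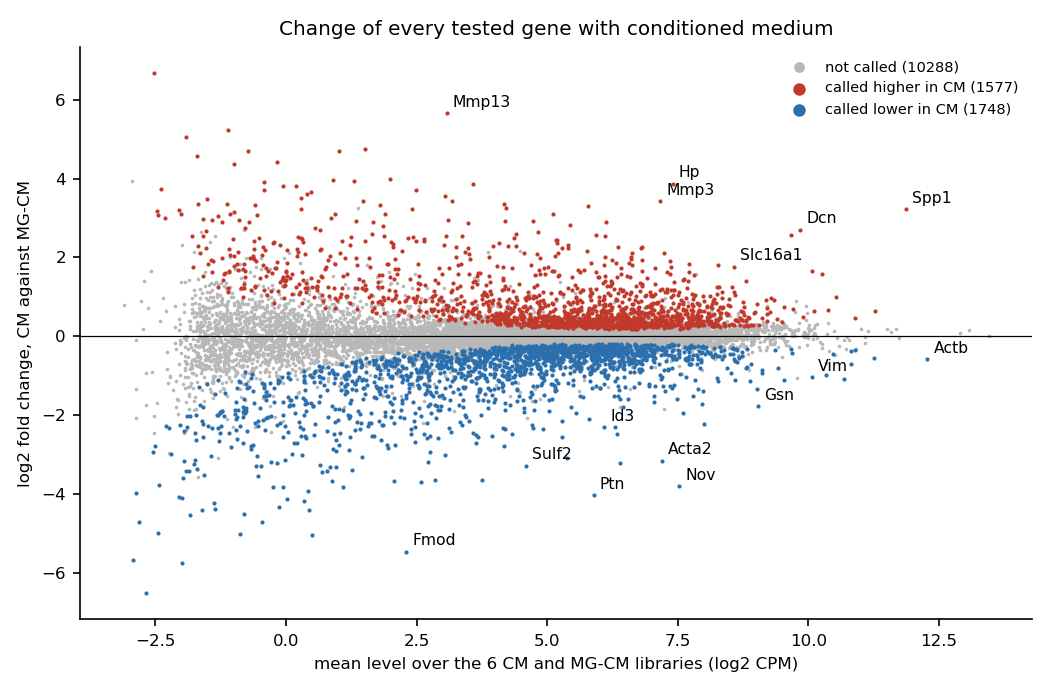
Log2 change of CM against MG-CM (vertical axis) against mean log2 CPM over the 6 libraries (horizontal axis) for the tested genes, 1 point per gene, with the 1577 genes called higher and the 1748 called lower in colour. Called genes lie on both sides of 0 over the whole range of levels.

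When the tested genes were ordered by their mean level and split into 5 equal groups, the number that rose increased from 226 in the lowest group through 235, 279 and 358 to 479 in the highest, whereas 333, 440, 389, 323 and 263 fell. Rises of at least 2-fold ran the other way at first, with 204 in the lowest group and then 97, 46, 54 and 74, and such falls numbered 276, 164, 49, 31 and 34. The median SE of the log2 change was 0.333 in the lowest group and 0.0849 in the highest, so smaller changes could be called in abundant genes. The genes that rose held 12.9%, 11.2% and 12.2% of all counts in MG-CM replicates 1, 2 and 3 and 22.4%, 18.2% and 18.0% in CM. The genes that fell held 13.4%, 14.7% and 13.7% in MG-CM and 7.15%, 9.32% and 9.22% in CM. The 10 largest gains made up 28.5% of the CPM gained, led by Spp1, the secreted phosphoprotein osteopontin, at 1849, 695 and 1351 CPM in MG-CM and 23206, 7299 and 9168 CPM in CM. Dcn, the small matrix proteoglycan decorin, was also among them at 512, 262 and 352 CPM in MG-CM and 4610.4, 1197 and 2348 CPM in CM, and Tnc, the matrix glycoprotein tenascin C, at 644, 498 and 721 CPM in MG-CM and 2273, 1268 and 2398 CPM in CM. In each of these genes all CM libraries exceeded all MG-CM libraries, and the log2 changes were 3.22 ± 0.35, 2.71 ± 0.24 and 1.64 ± 0.15 (estimate ± SE of the fit over 9 libraries, as throughout). Their adjusted p-values were 0.00246, 0.00139 and 0.00138.

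Some genes named with their log2 change were not also called without the replicate block. For those the adjusted p without the block is printed in the same paragraph. Where leaving out 1 library ended the call of a gene so named, that is said. In the fit of only the 6 compared libraries, 58 of the 358 named genes that were called lost their call. These are not marked individually. Counts for lists and families stand against the 11.6% that rose and the 12.8% that fell among all tested genes.

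A cluster of matrix metalloproteinases on chromosome 9 showed some of the largest rises. In the order of genes along RefSeq's annotation, Mmp13, Mmp12, Mmp1b, Mmp3 and Mmp10 formed an unbroken run of tested genes that all rose. The promoter sequence before each annotated start is shown because these 5 genes rose together and all hold, in the 120 bases before a start, the AP-1 motif TGANTCA. Below are 4 of them, 5′ to 3′ on the gene's strand, from RefSeq's GRCm38.p6 annotation with the motif in capitals: Mmp13 at chr9:7272394-7272513 (plus strand), Mmp1b at chr9:7388027-7388146 (minus strand), Mmp3 at chr9:7445702-7445821 (plus strand) and Mmp10 at chr9:7502222-7502341 (plus strand).
Mmp13: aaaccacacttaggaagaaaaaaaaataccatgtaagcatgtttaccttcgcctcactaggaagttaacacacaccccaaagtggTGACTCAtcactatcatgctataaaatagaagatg
Mmp1b: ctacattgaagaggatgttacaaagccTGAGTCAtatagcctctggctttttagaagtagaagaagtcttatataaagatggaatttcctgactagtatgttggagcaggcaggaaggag
Mmp3: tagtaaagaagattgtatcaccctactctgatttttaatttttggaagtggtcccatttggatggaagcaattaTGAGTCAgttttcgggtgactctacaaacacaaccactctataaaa
Mmp10: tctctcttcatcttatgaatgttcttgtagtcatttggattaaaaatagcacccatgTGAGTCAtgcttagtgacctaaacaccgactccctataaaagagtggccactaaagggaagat
The motif begins at position -35 from the start in Mmp13, at -93 in Mmp1b, at -46 in Mmp3 and at -63 in Mmp10, and Mmp12 holds it before 1 of its 2 annotated starts. The motif reads the same on both strands up to its central base, and 3.41% of all RefSeq mouse promoters in the table hold it in the same window. A match is a description of the letters, not a measured binding site.

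Mmp13, a collagenase, stood at 3.29, 0.474 and 1.02 CPM in MG-CM and 167, 32.8 and 32.7 CPM in CM. Each CM library was far above each MG-CM library, and the log2 change was 5.67 ± 0.34 (adjusted p = 0.000551). Mmp3, the stromelysin that cleaves proteoglycans and activates other proteases, stood at 73.0, 36.9 and 31.1 CPM in MG-CM and 517, 449 and 435 CPM in CM, without overlap between groups (3.42 ± 0.26 on the log2 scale, adjusted p = 0.00102). Its relative Mmp10 stood at 0.995, 0.508 and 0.455 CPM in MG-CM and 7.30, 4.90 and 4.13 CPM in CM and rose by 3.11 ± 0.26 (adjusted p = 0.00102). Mmp12, the macrophage elastase, and Mmp1b, a relative of the interstitial collagenase, had few counts in MG-CM. Mmp12 was at 0.0343, 0.0338 and 0.0758 CPM in MG-CM and 1.08, 1.86 and 2.99 CPM in CM. Mmp1b was at 0.137, 0 and 0.0379 CPM in MG-CM and 0.452, 0.651 and 0.361 CPM in CM. The adjusted p of Mmp1b was 0.0770 without the block, and 5 of the 6 fits that each left out 1 CM or MG-CM library did not call it.

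A second run of neighbours, on chromosome 5, held Oas2, Oas3, Oas1c, Oas1b, Oas1g and Oas1a, which encode oligoadenylate synthetases, antiviral enzymes that sense double-stranded RNA. RefSeq promoters were at hand for 4 of these 6 genes, and all 4 hold the core of the interferon-stimulated response element, GAAA followed after any 2 bases by GAAA, on 1 strand or the other in the 120 bases before the start. That core is present in 1.22% of all promoters of the table in the same window. Shown with the core in capitals are Oas3 at chr5:120777660-120777779, Oas1g at chr5:120887614-120887733 and Oas1a at chr5:120907526-120907645, all on the minus strand, where the matches begin at position -75 in Oas3, at -18 and -12 in Oas1g and at -20 and -14 in Oas1a, the last pairs overlapping.
Oas3: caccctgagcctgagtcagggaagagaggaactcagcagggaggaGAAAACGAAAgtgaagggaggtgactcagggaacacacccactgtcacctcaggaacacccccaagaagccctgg
Oas1g: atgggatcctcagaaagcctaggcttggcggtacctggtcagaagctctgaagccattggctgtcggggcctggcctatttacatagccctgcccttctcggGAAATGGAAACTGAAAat
Oas1a: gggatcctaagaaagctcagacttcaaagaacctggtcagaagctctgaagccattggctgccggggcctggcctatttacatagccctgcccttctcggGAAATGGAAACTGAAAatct
The capitals of Oas1g and Oas1a spell the same letters. Oas3 stood at 1.75, 0.812 and 2.24 CPM in MG-CM and 13.7, 36.4 and 17.2 CPM in CM (3.72 ± 0.50 on the log2 scale, adjusted p = 0.00474). Oas1a stood at 15.4, 12.3 and 20.1 CPM in MG-CM and 56.2, 115 and 94.0 CPM in CM (2.44 ± 0.26, adjusted p = 0.00244) and Oas1g at 2.61, 3.79 and 7.503 CPM in MG-CM and 12.6, 40.7 and 29.6 CPM in CM (2.55 ± 0.28, adjusted p = 0.00253). In these 3 genes no CM library reached down to an MG-CM library, and CM replicate 1 was the lowest of the CM libraries, whereas it was the highest in Mmp13. Oas1a and Oas1g are near-identical, so the division of reads between them is uncertain.

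Such runs were counted over the genome as a description. Of runs of at least 4 neighbouring tested genes that all moved one way, 19 consisted of genes that rose and 5 of genes that fell. The longest was on chromosome 1, with 10 genes from Aim2 to Ifi205, which belong largely to the family of interferon-inducible DNA sensors. On chromosome 1 lay also the run Il1rl2, Il1rl1, Il18rap and Slc9a4, with 3 receptor chains of the interleukin-1 family. The runs of falling genes included Serpinb1a, Serpinb6b, Serpinb9 and Serpinb9b on chromosome 13, intracellular protease inhibitors, and Lce1g, Tchh, S100a11 and S100a10 on chromosome 3. Neighbours can share reads where they overlap, which was not tested.

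**Figure D2:**
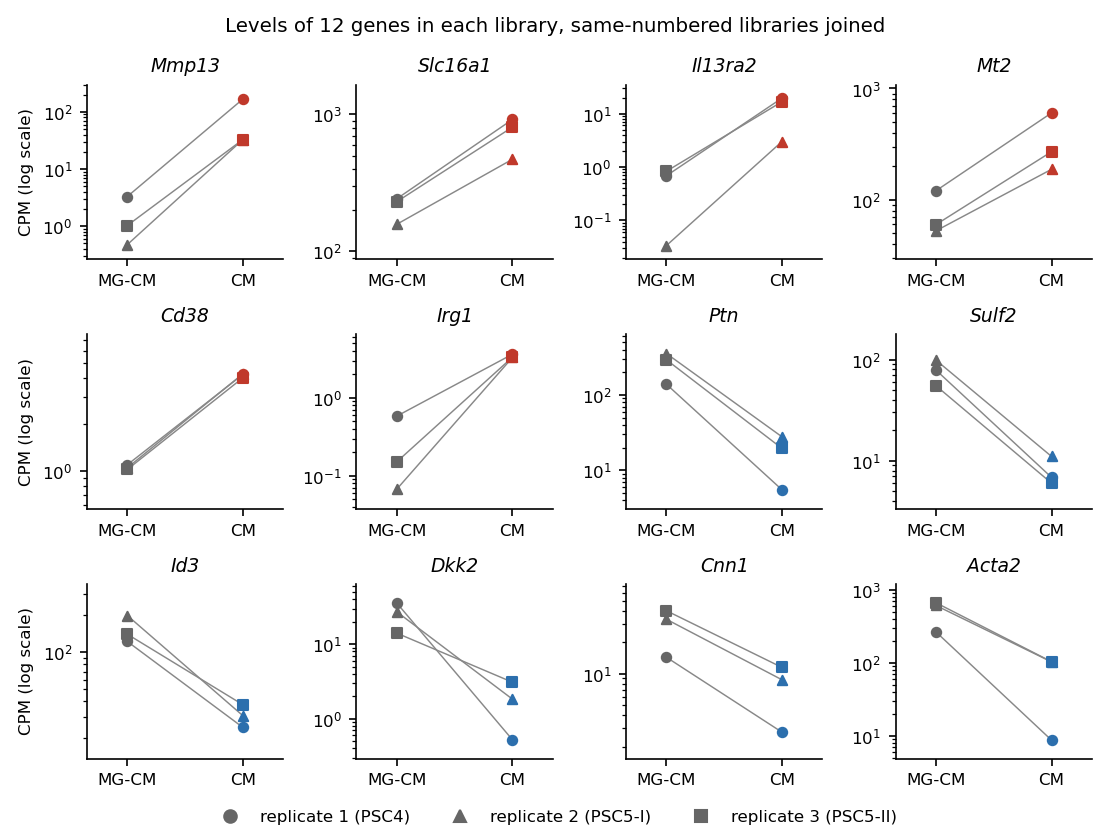
Level of 12 genes in CPM (vertical log axis) in the 3 MG-CM and 3 CM libraries, 1 panel per gene, with libraries of the same replicate number joined by a line. The first 6 genes, Mmp13 to Irg1, are higher in every CM library than in any MG-CM library, and the last 6, Ptn to Acta2, are lower.

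Among receptors and ligands of the interleukins, 15 of 37 tested members rose and 4 fell, with a median log2 change of 0.36 against 0.00642 over all genes. Without the block 5 rose and 2 fell, and without MG-CM replicate 3 the number that rose was 9. The receptors included chains for interleukin-4 and interleukin-13. Il13ra2, a receptor that binds interleukin-13 without a signalling domain of its own, stood at 0.686, 0.0338 and 0.834 CPM in MG-CM and 19.5, 3.01 and 16.7 CPM in CM, and all CM libraries were above all MG-CM libraries (4.71 ± 0.30 on the log2 scale, adjusted p = 0.000532). Il4ra, the chain shared by both cytokines, stood at 258, 169 and 212 CPM in MG-CM and 459, 288 and 507 CPM in CM and rose by 0.96 ± 0.12 (adjusted p = 0.00340). Il18rap, the accessory chain of the interleukin-18 receptor, stood at 22.7, 9.71 and 18.9 CPM in MG-CM and 87.1, 29.3 and 52.1 CPM in CM (1.67 ± 0.10, adjusted p = 0.000532), and its neighbour Il1rl1, the receptor of interleukin-33, at 191, 51.2 and 143 CPM in MG-CM and 809, 183 and 434 CPM in CM (1.84 ± 0.22, adjusted p = 0.00303). For Il18rap the groups did not overlap, while for Il1rl1 CM replicate 2 lay under MG-CM replicate 1. Without the block the adjusted p was 0.0540 for Il18rap and 0.0798 for Il1rl1. Il33 itself was at 62.2, 12.5 and 25.3 CPM in MG-CM and 123, 192 and 257 CPM in CM, without overlap (2.89 ± 0.58, adjusted p = 0.0152), but leaving out MG-CM replicate 2, MG-CM replicate 3 or CM replicate 3 ended its call. Il11, a gp130 cytokine, was near 0 in MG-CM and higher in every CM library, at 0.137, 0.406 and 0.568 CPM in MG-CM and 12.4, 1.70 and 3.84 CPM in CM (adjusted p = 0.0147). The members that fell were Il17d, Il17rd, Il6ra and Il11ra1, so the receptor chain for interleukin-11 was lower where its ligand was higher. Il11ra1 stood at 91.2, 99.3 and 79.6 CPM in MG-CM and 48.1, 61.5 and 67.1 CPM in CM (-0.61 ± 0.15, adjusted p = 0.0250), and its call was lost without MG-CM replicate 1, MG-CM replicate 2 or CM replicate 2.

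Targets and feedback regulators of ERK signalling, the kinase cascade below many growth factor receptors, rose in 10 of 22 cases and fell in 4, with a median log2 change of 0.33. The 10 were Etv1, Etv4, Etv5, Fosl1, Errfi1, Dusp6, Hmga2, Spred3, Lif and Il11, and the 4 were Epha4, Spry1, Ccnd1 and Dusp4. Spred3, an inhibitor of the cascade, stood at 12.8, 9.64 and 13.4 CPM in MG-CM and 37.1, 23.4 and 26.3 CPM in CM (1.27 ± 0.13, adjusted p = 0.00188), and Errfi1, a feedback inhibitor of the EGF receptor, at 259, 231 and 279 CPM in MG-CM and 477, 439 and 581 CPM in CM (0.96 ± 0.12, adjusted p = 0.00349). Neither overlapped between groups. Without the block the list had 7 higher and 2 lower, and without MG-CM replicate 2 it had 6 higher.

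Of 14 tested genes for the synthesis, breakdown and reception of small mediators such as nitric oxide, NAD products and adenosine, 6 rose and 2 fell, both of them Ddah genes, which break down an inhibitor of nitric oxide synthesis. Cd38, an enzyme that consumes NAD, was very even within groups at 1.10, 1.05 and 1.02 CPM in MG-CM and 4.21, 4.24 and 4.00 CPM in CM (1.97 ± 0.20, adjusted p = 0.00185). Irg1, the enzyme that makes itaconate from a citrate cycle intermediate, stood at 0.583, 0.0677 and 0.152 CPM in MG-CM and 3.62, 3.28 and 3.31 CPM in CM (3.83 ± 0.51, adjusted p = 0.00397). Both were higher in all CM libraries, and the CM libraries lay close together. Nos2, the inducible nitric oxide synthase, varied more, at 1.51, 0.406 and 0.379 CPM in MG-CM and 20.9, 3.63 and 8.99 CPM in CM (3.93 ± 0.46, adjusted p = 0.00294, and 0.0613 without the block). Without the block the list had 3 higher and 0 lower members.

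Membrane transporters of the solute carrier families rose more often than they fell. Of 240 tested, 48 rose (20%) and 21 fell (8.75%), with a median log2 change of 0.07, and without the block the counts were 17 and 9. Without MG-CM replicate 2, 20 rose. Slc16a1, a lactate and pyruvate carrier, stood at 242, 158 and 231 CPM in MG-CM and 917, 470.0 and 807 CPM in CM, and its relative Slc16a3, which exports lactate, at 11.1, 12.8 and 12.01 CPM in MG-CM and 144, 55.5 and 124 CPM in CM. All CM libraries were above all MG-CM libraries in both, by 1.77 ± 0.09 (adjusted p = 0.000480) and 3.11 ± 0.35 (adjusted p = 0.00278) on the log2 scale. Slc43a3, a carrier of purine bases, rose by less but evenly, at 117, 107 and 103 CPM in MG-CM and 274, 248 and 225 CPM in CM (1.19 ± 0.08, adjusted p = 0.000680). In the opposite direction, Slc1a2, a glutamate transporter, stood at 2.44, 1.93 and 1.36 CPM in MG-CM and 0.104, 0.372 and 0.0984 CPM in CM (-3.30 ± 0.40, adjusted p = 0.00292).

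Regulators of pyruvate dehydrogenase, the mitochondrial enzyme that turns pyruvate into acetyl-CoA, moved in different directions. Pdk1, a kinase that inactivates pyruvate dehydrogenase, stood at 23.5, 14.1 and 16.4 CPM in MG-CM and 117, 33.9 and 89.3 CPM in CM (2.04 ± 0.23, adjusted p = 0.00286). Pdk2, another kinase of that family, stood at 8.57, 9.71 and 8.37 CPM in MG-CM and 2.57, 4.28 and 4.53 CPM in CM (-1.25 ± 0.17, adjusted p = 0.00408), and Pdp1, the opposing phosphatase, at 65.6, 68.8 and 61.5 CPM in MG-CM and 40.4, 40.9 and 41.1 CPM in CM (-0.68 ± 0.07, adjusted p = 0.00185). The groups did not overlap in any of these 3 genes. Of 36 tested genes of the citrate cycle and mitochondrial fuel use, Pdk1 and Pck2 rose and 8 fell, among them Idh2, the mitochondrial isocitrate dehydrogenase, at 161, 180.4 and 157 CPM in MG-CM and 98.1, 101 and 119 CPM in CM (-0.65 ± 0.09, adjusted p = 0.00415). Of 24 genes of fatty acid oxidation 3 rose (12.5%) and 9 fell (37.5%). In the citrate cycle list 5.56% rose and 22.2% fell, against 11.6% and 12.8% of all tested genes. The count of falling genes in each list was 3 without the block and 3 without MG-CM replicate 2.

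Of 29 genes of serine, one-carbon and nucleotide synthesis, 7 rose and 1 fell. Among the 7 were Mthfd1l, Aldh1l1, Shmt2, Mthfd2, Psph and Aldh1l2, and the 1 was Rrm1, a subunit of ribonucleotide reductase. Mthfd2, the mitochondrial folate enzyme, stood at 69.9, 91.0 and 112 CPM in MG-CM and 237, 179.7 and 139 CPM in CM (1.03 ± 0.24, adjusted p = 0.0238). Its level was highest in CM replicate 1, and its call was lost without MG-CM replicate 1, MG-CM replicate 2 or CM replicate 2. Without MG-CM replicate 2 the list had 0 rising genes, and without the block it had 5.

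Several metal-handling genes rose. Mt2, a metallothionein, stood at 120.5, 52.6 and 59.8 CPM in MG-CM and 603, 188 and 270.2 CPM in CM (2.11 ± 0.10, adjusted p = 0.000413), and replicate 1 was the highest in both media. Of 22 iron-handling genes 7 rose (31.8%) and 2 fell (9.09%), against 11.6% and 12.8% of all tested genes. Steap1, a membrane protein of the STEAP family, stood at 49.4, 31.0 and 41.5 CPM in MG-CM and 121, 66.7 and 76.5 CPM in CM (1.09 ± 0.10, adjusted p = 0.00129). Cp, the ferroxidase ceruloplasmin, stood at 168, 201 and 232 CPM in MG-CM and 369, 492 and 571 CPM in CM (1.24 ± 0.16, adjusted p = 0.00377). The ferritin light chain Ftl1, which stores iron, stood at 2062, 2620.1 and 2278 CPM in MG-CM and 1219, 1638 and 1441 CPM in CM and fell (-0.70 ± 0.10, adjusted p = 0.00499). In all 3 genes the groups were apart. Without the block 3 iron genes rose and 1 fell.

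Of genes of retinoic acid synthesis and reception, a pathway tied to the vitamin A stores of these cells, Rarb, Rdh10 and Dhrs3 rose. The pathway was not counted as a whole, so these genes stand for themselves alone. Rarb, a retinoic acid receptor that is itself induced by retinoic acid, stood at 4.97, 3.38 and 4.55 CPM in MG-CM and 13.7, 23.8 and 29.4 CPM in CM (2.27 ± 0.35, adjusted p = 0.00673). Rdh10, which oxidises retinol to retinal, stood at 19.9, 12.6 and 18.1 CPM in MG-CM and 91.1, 38.6 and 152 CPM in CM (2.35 ± 0.34, adjusted p = 0.00584), and Dhrs3, which carries out the reverse reduction, at 12.2, 6.94 and 7.12 CPM in MG-CM and 29.7, 52.7 and 49.1 CPM in CM (2.29 ± 0.38, adjusted p = 0.00829). Each was higher in every CM library than in any MG-CM library. In the whole family of aldehyde, retinol and short-chain dehydrogenases, 9 of 51 tested members rose and 9 fell. That is 17.6% in each direction, against 11.6% and 12.8% of all tested genes. Without the block 5 members rose and 5 fell, and without MG-CM replicate 2 it was 2 and 3.

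Of 39 nuclear receptors 5 rose (12.8%) and 10 fell (25.6%), against 11.6% and 12.8% of all tested genes. The share that rose was thus near that of all genes. Of these receptors 2 rose and 5 fell without the block, and 1 and 6 without MG-CM replicate 1. Pgr, the progesterone receptor, was at 0.583, 2.06 and 1.10 CPM in MG-CM and 0.0348, 0.124 and 0.0328 CPM in CM, with too few counts in CM for a useful ratio.

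Transcripts of enzymes that modify sulphated matrix sugars moved in opposite directions; sulphation itself was not measured. Sulf1 and Sulf2 are extracellular enzymes that trim sulphate groups from heparan sulphate. Sulf1 stood at 26.4, 12.8 and 21.9 CPM in MG-CM and 117, 48.4 and 134 CPM in CM (2.24 ± 0.20, adjusted p = 0.00161), while Sulf2 stood at 78.7, 98.7 and 55.1 CPM in MG-CM and 6.85, 11.03 and 6.00 CPM in CM (-3.28 ± 0.19, adjusted p = 0.000532). Every CM library was above every MG-CM library in Sulf1 and below every one in Sulf2. Chst11, which sulphates chondroitin, stood at 61.5, 45.1 and 49.2 CPM in MG-CM and 384, 146 and 243 CPM in CM and rose (2.25 ± 0.24, adjusted p = 0.00246). Of 24 glycosaminoglycan sulphotransferases and related enzymes 4 rose and 4 fell, 16.7% in each direction, which is near the 11.6% and 12.8% of all tested genes.

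Of 38 tested members of the Wnt pathway, 17 fell and 0 rose, the median log2 change was -0.60, and 31 lay below 0. At an unadjusted p under 0.05 the edgeR test had 20 lower and 0 higher, and DESeq2 called 19 and 0 after adjustment. Over the fits that left out 1 library, 8 to 16 were lower and 0 to 1 higher. The list takes in genes whose products oppose each other. Among ligands and their enhancers, Wnt2, Wnt4, Wnt5b and Rspo2 fell. Rspo2, an R-spondin that strengthens Wnt signalling, stood at 2.16, 8.59 and 6.18 CPM in MG-CM and 0.417, 1.08 and 0.919 CPM in CM (-2.75 ± 0.63, adjusted p = 0.0230). Its groups did not overlap, but 5 of the 6 fits that left out 1 library did not call it. Wnt2 was at 0.857, 0.508 and 0.531 CPM in MG-CM and 0, 0.0620 and 0.0984 CPM in CM, with few counts in any library.

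Among secreted and intracellular Wnt inhibitors, Dkk2, Sfrp2, Sfrp4, Nkd1, Notum and Axin2 fell, of which Nkd1, Notum and Axin2 are also known as feedback targets of the pathway. Dkk2, an antagonist of the co-receptors, stood at 35.4, 27.1 and 14.0 CPM in MG-CM and 0.521, 1.83 and 3.08 CPM in CM (-3.69 ± 0.62, adjusted p = 0.00891). Axin2, the scaffold often used as a readout of the pathway, stood at 9.02, 5.35 and 3.94 CPM in MG-CM and 0.556, 1.30 and 1.44 CPM in CM (-2.39 ± 0.44, adjusted p = 0.0110). Sfrp4, a secreted relative of the receptors, stood at 24.7, 38.9 and 27.5 CPM in MG-CM and 3.62, 5.02 and 7.61 CPM in CM (-2.50 ± 0.26, adjusted p = 0.00242). No CM library reached the lowest MG-CM library in these 3 genes. 

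The receptors Fzd2, Fzd4, Fzd5, Fzd8 and Lrp6 and the transcription factors Tcf7l1 and Tcf7l2 fell by less, between -1.01 for Tcf7l2 and -0.37 for Fzd4 on the log2 scale. Lef1, a transcription factor and known target, was not called at a log2 change of 0.39 ± 0.18 (adjusted p = 0.148), nor was Fzd1 (0.27 ± 0.17, adjusted p = 0.276). Daam2, a formin that acts in Wnt signalling, is not in the list and stood at 14.3, 22.8 and 18.1 CPM in MG-CM and 2.57, 3.41 and 3.15 CPM in CM (-2.58 ± 0.14, adjusted p = 0.000480). Without the block 13 members of the list fell, without MG-CM replicate 2 it was 8, without replicate 2 of all groups it was 2, and the 5 members that fell without each library in turn were Dkk2, Axin2, Sfrp4, Tcf7l1 and Wnt2.

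**Figure D3:**
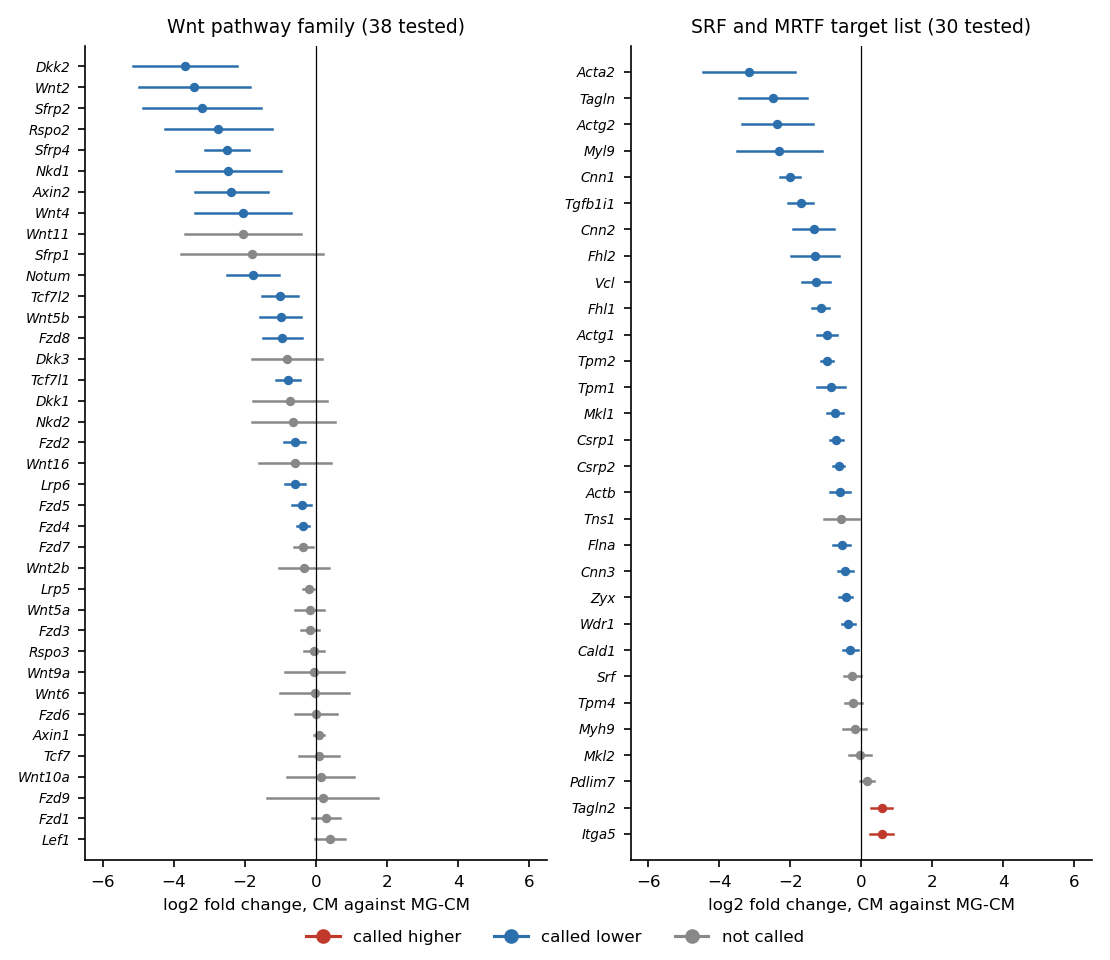
Log2 change of CM against MG-CM with its 95% interval (horizontal axis) for each of the 38 tested Wnt pathway members and the 30 tested cytoskeletal targets of SRF and MRTF, 1 line per gene, with called genes in colour. Most intervals lie left of 0 in both panels, and the called genes right of 0 are Tagln2 and Itga5.

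Of 44 tested genes of the TGF-beta superfamily and its receptors, binding proteins and SMADs, 12 fell (27.3%) and 7 rose (15.9%). Among all tested genes the shares were 12.8% and 11.6%, so the share that rose was near that of all genes. Without the block 5 of the 44 fell and 4 rose, and without MG-CM replicate 1 it was 7 and 6. Id3 and Id4 are inhibitors of helix-loop-helix factors that BMP signals induce. Id3 stood at 123, 199.7 and 141 CPM in MG-CM and 24.6, 30.6 and 37.6 CPM in CM (-2.31 ± 0.16, adjusted p = 0.000732), and Id4 at 8.71, 8.49 and 6.48 CPM in MG-CM and 0.591, 1.33 and 0.886 CPM in CM (-3.07 ± 0.24, adjusted p = 0.000843). Smad9, a SMAD of the BMP branch, stood at 11.1, 9.85 and 5.61 CPM in MG-CM and 1.29, 1.797 and 1.15 CPM in CM (-2.63 ± 0.25, adjusted p = 0.00147). All CM libraries were below all MG-CM libraries in these 3 genes.

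Among the ligands, Tgfb3 stood at 53.6, 41.7 and 37.7 CPM in MG-CM and 13.6, 16.2 and 15.1 CPM in CM (-1.54 ± 0.17, adjusted p = 0.00253) and Bmp4 at 10.8, 2.27 and 1.67 CPM in MG-CM and 0.765, 0.155 and 0.0656 CPM in CM (-4.13 ± 0.44, adjusted p = 0.00229). Bmp3, Bmp6, Gdf6 and Tgfb2 fell as well. Inhba, a subunit of the activins, stood at 11.6, 9.88 and 11.7 CPM in MG-CM and 74.8, 23.1 and 27.1 CPM in CM and rose (1.74 ± 0.30, adjusted p = 0.00913), and Tgfb1 stood at 16.5, 14.9 and 12.3 CPM in MG-CM and 33.0, 22.3 and 19.5 CPM in CM (0.75 ± 0.10, adjusted p = 0.00432). None of these 4 ligands had overlapping groups. The adjusted p without the block was 0.116 for Bmp4 and 0.0797 for Tgfb1.

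Genes of the contractile cytoskeleton that SRF and its MRTF co-factors are known to drive fell together. Of 30 tested members of that list 22 fell and 2 rose, the median log2 change was -0.67, and 27 lay below 0. Promoters were in the RefSeq table for 16 of the 22, and 4 of these, Actg1, Cnn2, Fhl1 and Fhl2, hold the CArG box, the sequence SRF binds, in the 120 bases before a start, which 0.749% of all promoters do. Actg1 at chr11:120348496-120348615 (minus strand) and Cnn2 at chr10:79988480-79988599 (plus strand), both of GRCm38.p6, show it in capitals from position -90 and from position -56.
Actg1: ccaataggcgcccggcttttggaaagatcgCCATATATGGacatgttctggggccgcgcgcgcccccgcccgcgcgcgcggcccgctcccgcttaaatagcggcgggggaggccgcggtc
Cnn2: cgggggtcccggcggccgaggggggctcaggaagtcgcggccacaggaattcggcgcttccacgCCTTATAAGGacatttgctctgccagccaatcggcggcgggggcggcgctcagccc
Actg1 encodes the cytoplasmic gamma actin and Cnn2 a calponin, and the box was not found within this window in the other 12. Only its strict form was searched, CC and GG around A and T alone. The windows of Acta2 and Wdr1 hold stretches 1 base off that form, which were not counted. The result says only that the strict letters are not there. Actg1 stood at 1146, 2190.3 and 2378 CPM in MG-CM and 562, 949 and 1477 CPM in CM (-0.98 ± 0.12, adjusted p = 0.00291) and Cnn2 at 319, 399 and 440.0 CPM in MG-CM and 73.8, 175 and 243 CPM in CM (-1.34 ± 0.25, adjusted p = 0.0118). Both groups overlapped for Actg1, whose MG-CM replicate 1 lay under CM replicate 3, and did not overlap for Cnn2. Without the block the adjusted p was 0.201 for Actg1 and 0.0630 for Cnn2, and Cnn2 lost its call without MG-CM replicate 2.

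Cnn1, the smooth muscle calponin, stood at 14.4, 33.3 and 40.2 CPM in MG-CM and 2.75, 8.74 and 11.5 CPM in CM (-2.01 ± 0.12, adjusted p = 0.000532). Acta2, the smooth muscle actin used to mark contractile fibroblasts, stood at 265, 609.7 and 664 CPM in MG-CM and 8.73, 103 and 103 CPM in CM (-3.16 ± 0.54, adjusted p = 0.00965). The PSC4 libraries were the lowest of their medium in both genes, and the CM libraries remained below the MG-CM libraries. Vcl, the adhesion protein vinculin, stood at 228, 230.3 and 242 CPM in MG-CM and 62.4, 116 and 121 CPM in CM (-1.28 ± 0.17, adjusted p = 0.00436), and Csrp1, a LIM protein of actin bundles, at 255, 295 and 280.0 CPM in MG-CM and 156, 175 and 181 CPM in CM (-0.70 ± 0.07, adjusted p = 0.00209). The adjusted p without the block was 0.0738 for Cnn1 and 0.0556 for Acta2.

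Of the 22 falling SRF and MRTF targets 8 fell without the block, 13 without MG-CM replicate 2 and 12 without each library in turn. Gsn, gelsolin, which severs actin filaments and is not in the list, stood at 903, 1226 and 854 CPM in MG-CM and 187, 372 and 322 CPM in CM (-1.78 ± 0.18, adjusted p = 0.00181). Of 24 YAP and TEAD targets, genes that respond to cell tension and overlap in part with SRF targets, 11 fell and 3 rose, but 3 fell and 0 rose without the block, and 3 fell without MG-CM replicate 2.

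Of 19 tested ephrins and Eph receptors 9 fell, and Efnb2 alone rose. Epha4 stood at 6.38, 4.30 and 3.60 CPM in MG-CM and 0.730, 0.744 and 1.05 CPM in CM (-2.46 ± 0.26, adjusted p = 0.00210) and the ligand gene Efnb1 at 23.1, 18.6 and 15.2 CPM in MG-CM and 12.7, 10.6 and 8.69 CPM in CM (-0.83 ± 0.07, adjusted p = 0.00136). All CM libraries were below all MG-CM libraries in both genes. Without the block 4 members of the family fell, and without MG-CM replicate 2 it was 3. Of 31 semaphorins, plexins and neuropilins 4 rose and 8 fell, and of 30 netrins, slits and Robo receptors 6 fell. Without the block these were 2 and 5, and 1. In the cadherin and protocadherin family 11 of 39 fell (28.2%) and 5 rose (12.8%). In the family of galectins, annexins and S100 proteins 11 of 27 fell (40.7%) and 4 rose (14.8%). Without the block these counts were 3 and 2 for the cadherins and 7 and 2 for the galectins, annexins and S100 proteins.

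Several secreted growth factors and matrix proteins fell. Fmod, the collagen-binding proteoglycan fibromodulin, stood at 64.3, 32.1 and 14.7 CPM in MG-CM and 0.417, 0.992 and 0.820 CPM in CM (-5.47 ± 0.82, adjusted p = 0.00638). Ptn, the heparin-binding growth factor pleiotrophin, stood at 139, 355 and 293 CPM in MG-CM and 5.49, 27.8 and 19.5 CPM in CM (-4.03 ± 0.20, adjusted p = 0.000480), and Nov, a matricellular protein of the CCN family, at 449.7, 985 and 831 CPM in MG-CM and 20.2, 83.2 and 63.9 CPM in CM (-3.81 ± 0.53, adjusted p = 0.00522). The groups were far apart in each of these 3 genes. Igfbp2, an IGF-binding protein, stood at 24.8, 30.5 and 19.9 CPM in MG-CM and 2.503, 1.67 and 1.97 CPM in CM (-3.64 ± 0.37, adjusted p = 0.00220), and Cx3cl1, a membrane-bound chemokine, at 116, 99.8 and 74.0 CPM in MG-CM and 15.5, 18.7 and 13.9 CPM in CM (-2.57 ± 0.19, adjusted p = 0.000843). Nrg1, a ligand of ErbB receptors, stood at 41.8, 36.8 and 33.8 CPM in MG-CM and 14.4, 13.8 and 11.2 CPM in CM (-1.51 ± 0.10, adjusted p = 0.000532). These 3 were again separate in all libraries.

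In a list of cell cycle inhibitors and pocket proteins such as Rb1, 8 of 22 tested genes fell and 0 rose by edgeR. The list also holds the cyclins Ccng1 and Ccng2 and the factors E2f6, E2f7 and E2f8. At an unadjusted p under 0.05 the edgeR test had 13 lower and 1 higher, and DESeq2 called 9 and 0. The 8 were Ccng1, Gadd45g, Cdkn1c, Cdkn1b, Cdkn2a, Btg2, Cdkn2c and Gadd45b, and 2 of them fell without the block. Cdkn1b, an inhibitor of cyclin-dependent kinases, stood at 149.7, 143 and 126 CPM in MG-CM and 80.9, 91.9 and 103 CPM in CM (-0.60 ± 0.11, adjusted p = 0.0113), and leaving out MG-CM replicate 2 ended its call. Without that library the list as a whole had 2 falling genes.

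The ribosomal protein families had few calls, against 11.6% of all tested genes that rose and 12.8% that fell. Of 80 cytosolic ribosomal protein genes 0 were called in either direction by edgeR, although 69 lay above 0, with a median log2 change of 0.15 and a range from -0.17 to 0.43, and p before adjustment was under 0.05 for 2 of those above 0 and 0 of those below. DESeq2 called 2 higher, and 1 leave-out fit called 4 lower. Of 76 mitochondrial ribosomal protein genes 1 rose and 1 fell. Of 48 proteasome subunits 7 rose (14.6%) and 0 fell, and 44 lay above 0. At an unadjusted p under 0.05 the edgeR test had 19 proteasome subunits higher and 0 lower. After adjustment 2 rose without the block and 1 without MG-CM replicate 2. Of 393 zinc finger genes 18 rose (4.58%) and 25 fell (6.36%), and 5 and 10 did so without the block. The narrowest intervals around 0 included Rnf168, a ubiquitin ligase of the DNA damage response, at 94.8, 80.5 and 76.1 CPM in MG-CM and 93.2, 82.5 and 75.1 CPM in CM.

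**Figure D4:**
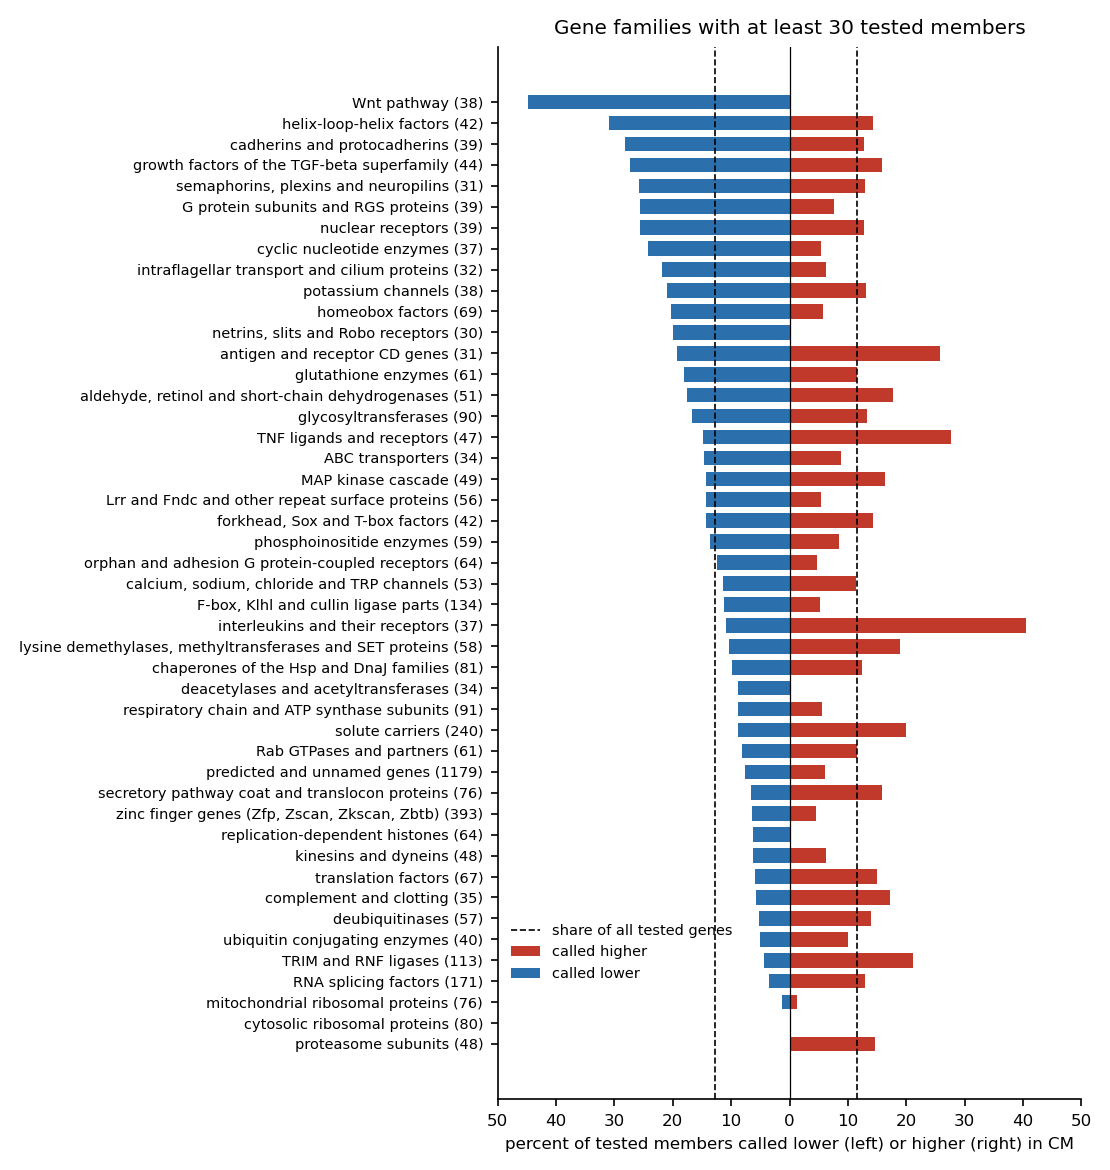
Percent of tested members called lower (left) and called higher (right) for 46 gene families with at least 30 tested members, 1 bar pair per family, with dashed lines at the shares of all tested genes, 12.8% lower and 11.6% higher. The Wnt pathway reaches beyond the lower line, the interleukins and solute carriers beyond the higher line, and the ribosomal protein families stay near 0.

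Some genes were close to absent in one medium. Galntl2, a glycosyltransferase, stood at 7.96, 5.79 and 3.87 CPM in MG-CM and 0.174, 0.372 and 0.262 CPM in CM, and Pcsk6, a protease that activates growth factor precursors, at 16.1, 6.80 and 4.51 CPM in MG-CM and 0.0695, 0.527 and 0.131 CPM in CM. Their adjusted p-values in the edgeR test were 0.00207 and 0.00288, and a few counts were left in CM. Of rising genes, Adra2a, an adrenergic receptor, stood at 0.446, 0.203 and 0.227 CPM in MG-CM and 6.85, 2.48 and 3.05 CPM in CM (3.81 ± 0.35, adjusted p = 0.00138), and Cdh10, a cadherin, at 0.206, 0.440 and 0.493 CPM in MG-CM and 4.66, 2.32 and 3.77 CPM in CM (3.23 ± 0.44, adjusted p = 0.00421). Prdm1, a transcriptional repressor, stood at 1.61, 0.474 and 0.682 CPM in MG-CM and 18.9, 3.94 and 8.89 CPM in CM (3.44 ± 0.29, adjusted p = 0.00118). Prdm1 was higher in each CM library than in any MG-CM library. Galntl2, Pcsk6, Adra2a and Cdh10 met the rule for switched genes. That rule asks for a mean near 0 in one medium and a higher level in each library of the other. The separation of their groups follows from that rule and is no further support.

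The 3 pairs did not respond to the same extent. Over the 10826 genes whose mean log2 CPM reached 2, the log2 changes of the pairs had SDs of 0.695 in PSC4, 0.550 in PSC5-I and 0.448 in PSC5-II. As a description across genes, which are not independent replicates, the changes correlated at 0.693, 0.714 and 0.814, highest between both PSC5 pairs. An interaction of CM with PSC4 was fitted, in which PSC4 is 1 pair. Its own spread cannot be estimated and was assumed to be like that of the other libraries, so the calls compare these libraries and do not show a difference between lines. The interaction was called for 373 genes, with a higher change in PSC4 for 97 (0.713% of those tested) and a lower one for 276 (2.03%). In 217 of them the PSC4 change was in the same direction as in both PSC5 pairs and further from 0, and in 105 it was opposite to both.

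**Figure D5:**
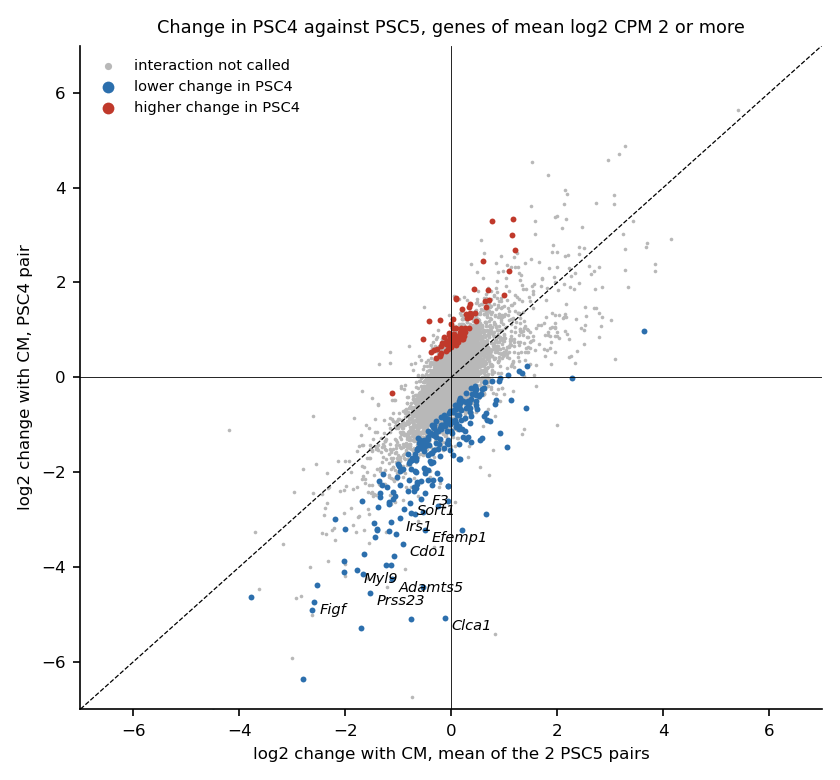
Log2 change in the PSC4 pair (vertical axis) against the mean log2 change of both PSC5 pairs (horizontal axis) for 10826 genes, 1 point per gene, with the 339 plotted genes called for the interaction in colour. Called genes lie away from the diagonal, which follows from the call, and most of them lie below it.

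Adamts5, a protease that cleaves aggrecan-type proteoglycans, had the smallest p for the interaction. It stood at 321, 309 and 328 CPM in MG-CM and 16.6, 151 and 144 CPM in CM, so that CM replicate 1, of PSC4, was far lower than the other CM libraries while MG-CM was even. The log2 difference between the responses was -3.16 ± 0.13 (adjusted p = 0.000745). Efemp1, a fibulin of the matrix, stood at 139, 155 and 176 CPM in MG-CM and 14.9, 104 and 133 CPM in CM (-2.73 ± 0.14, adjusted p = 0.00114), and Irs1, the insulin receptor substrate, at 163, 131 and 142 CPM in MG-CM and 20.7, 67.6 and 71.3 CPM in CM (a difference of -2.003, adjusted p = 0.00152). In each, the largest fall was that of PSC4, which follows in part from the choice of these genes by the interaction. Without MG-CM replicate 2 the counts were 2 and 36. Of the 373 genes, 26 were called without each PSC5 library in turn, and the interaction without the block called 3 and 28.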

How the data were processed

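RNA of stellate cells was depleted of ribosomal RNA and made into stranded TruSeq libraries, per the labels' protocols. Tools named in the submitters' processing notes are STAR 2.5.1b, DESeq2 and RSEM 1.2.29, and the builds are mm9 and NCBIM37, with no roles given. The deposited table, from its values and the naming of RSEM, was taken to hold the authors' expected counts, stored as whole numbers and not scaled, for 17156 symbols in 9 libraries of 25625806 to 32466018 counts. Reads of near-identical genes are shared out in such counts, which leaves the value of each such gene uncertain. Replicates of a group differed beyond counting error, with chi-square 15.3 to 109 times its degrees of freedom.

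Counts were tested in R 4.3.3 with edgeR 4.0.16: filterByExpr (minimum count 10, minimum total 15) kept 13613 genes, libraries were scaled by TMM, and all 9 libraries entered a robust quasi-likelihood fit with terms for group and replicate number, leaving 4 residual degrees of freedom. P-values were adjusted by Benjamini and Hochberg over all genes kept and called under 0.05. A second fit gave the interaction of CM with PSC4. Its terms fit each PSC4 library exactly, so its spread came from the PSC5 libraries alone. It left fewer residual degrees of freedom than the first fit. CPM are TMM-scaled, and log2 values use a prior count of 2. The block was used because the labels give libraries of the same number the same stellate line, although numbers 2 and 3 are both labelled PSC5. After group means were removed, CM and MG-CM libraries of 1 number correlated at 0.442, 0.291 and 0.400, and those of other numbers at -0.409 to 0.161. Removing group means makes the covariances of a library with those of the other group cancel out. The lower values for other numbers follow in part from that.

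Alternatives were the fit without the block, RLE scaling, no filter, only the 6 libraries, no robust estimation, DESeq2 1.42.0 with the block, and fits without each library or each replicate number. The members, lists, families, naming rule and motifs were chosen with earlier results of these data known. Named genes were those with the largest changes in each direction, the smallest p-values in each list and family, the largest gains and losses, the steadiest and switched genes, and the 10 smallest p-values for the interaction. Members enumerated for a list or a run of neighbours, Bmp4, Tgfb3, Inhba, Il4ra, Il1rl1, Il11ra1, Cnn2, Csrp1, Vcl, Axin2 and Rspo2 were named besides these, after their values were seen, and so were the markers of other cells. RefSeq tables of GRCm38.p6 gave gene order for 13411 of the tested genes and promoters for 10597 of them (77.8%). Gene coordinates of that build were used only for printed promoters. No shares of motifs over all called genes were formed because fewer than 80% had a promoter. For the runs of neighbours and the SRF list, matches were counted per gene over any of its starts. The shares of all promoters beside them are per promoter, promoters were lacking for some of those genes, and no test was made. Results for a few items are not reported here.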

Additional observations from a re-analysis of the deposited data

Results flagged for a closer look

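The interaction of CM with PSC4 was called for 373 genes, 2 higher and 36 lower without MG-CM replicate 2. It sets 1 PSC4 pair, whose own spread cannot be estimated, against 2 PSC5 pairs, and describes these libraries. Beside Adamts5, Efemp1 and Irs1, with log2 differences between responses (PSC4 minus PSC5) of -3.16, -2.73 and -2.003, the 10 smallest p-values included 7 other genes, all with the lower change in PSC4. Prss23, a serine protease, differed by -3.04, at 67.1, 119 and 103 CPM in MG-CM and 2.82, 36.4 and 39.9 CPM in CM. Clca1, a secreted regulator of chloride channels, differed by -5.11, at 22.1, 6.02 and 10.8 CPM in MG-CM and 0.591, 5.05 and 10.96 CPM in CM, and CM replicate 1 was its lowest library. Cdo1, which degrades cysteine, differed by -2.61, at 103, 37.8 and 39.2 CPM in MG-CM and 8.97, 20.1 and 20.9 CPM in CM. Myl9, a myosin light chain, differed by -2.31, at 128, 231 and 234 CPM in MG-CM and 7.54, 63.8 and 72.8 CPM in CM, and PSC4 was the lowest line in both media. Figf, a vascular growth factor, differed by -2.16, at 124, 136 and 132 CPM in MG-CM and 4.59, 20.6 and 23.8 CPM in CM. F3, tissue factor, differed by -1.95, at 299, 292 and 261 CPM in MG-CM and 55.1, 191 and 203 CPM in CM, and Sort1, the sorting receptor sortilin, by -1.88, at 124, 113 and 114 CPM in MG-CM and 19.7, 64.6 and 68.2 CPM in CM. In all 7 genes CM replicate 1 was the lowest of the 6 libraries, which follows in part from their choice by the interaction. The adjusted p-values of the 10 genes ran from 0.000745 to 0.00337. Line and source of CM cannot be told apart in these differences.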

How the results depend on the processing

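No named gene that was called changed direction in an alternative fit, but the number of calls depended on the design. Without the block 660 genes were higher and 734 lower in CM, and the interaction with PSC4 called 3 and 28. With only the 6 compared libraries 738 were higher and 937 lower. Without the filter on low counts the interaction called 207 and 452. Leaving out 1 library, or 1 replicate number from all groups, gave 243 to 1462 higher and 237 to 1503 lower, the lowest without replicate 2, and 2 to 207 and 36 to 454 for the interaction over single PSC5 libraries, the lowest without MG-CM replicate 2. For CM against MG-CM, RLE scaling, no robust estimation, DESeq2 and no filter stayed within 1.5 times of the counts given, as did RLE scaling for the interaction, and no scaling moved the median of all genes by more than 0.1. Of 358 named genes that were called, 265 were called without each CM or MG-CM library in turn and 134 were lost without the block. The residual degrees of freedom, 4 for CM against MG-CM and fewer for the interaction, limit what can be called. For CM against MG-CM, 1657 uncalled genes had intervals reaching a 2-fold change.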
